A study of Sus scrofa with 12 samples.

Results

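Cathepsins are the proteases of the lysosome, and 10 of their genes were followed here in the ovaries of sows with small and large litters: CTSL, CTSA, CTSB, CTSC, CTSD, CTSF, CTSH, CTSK, CTSS and CTSZ. They are 10 of the 29884 genes in the deposited expression table, found by their exact symbols. CTSL was chosen by its own values, since each of the 3 ovaries from sows with large litters (LLS) held less of it than each of the 3 ovaries from sows with small litters (SLS). The other 9 genes were taken as its family. All 10 passed the filter on low values, at least 1 FPKM in at least 3 libraries, which 12260 genes passed. FPKM scales the reads of a gene to the length of its transcript and to the depth of the library.

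The ovaries were left ovaries of pigs (Sus scrofa) slaughtered 4 days after delivery number 4, all from a commercial farm, with a mean of 8.48 piglets per litter in SLS and 16.19 in LLS. The labels give no treatment, breed or age, and litter size is a record of the sow and not an intervention. Total RNA without ribosomal RNA was sequenced with 1 library per ovary, ZD2, ZD3 and ZD12 in SLS and ZD5, ZD7 and ZD8 in LLS. The 6 gene libraries held between 32272803 and 60903268 reads.

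A cathepsin is made as an inactive precursor, tagged with mannose 6-phosphate in the Golgi, carried to the lysosome by mannose 6-phosphate receptors and cut there to its active form at acid pH. Cystatins bind and block the cysteine cathepsins, and TFEB and its relatives switch on many lysosomal genes together. In the ovary, cathepsins are known from the breakdown of the follicle wall at ovulation, from the remodelling of luteal tissue and from macrophages. The name covers proteases of different descent. CTSL, CTSB, CTSC, CTSF, CTSH, CTSK, CTSS and CTSZ are cysteine proteases related to papain, CTSD is an aspartic protease and CTSA a serine carboxypeptidase.

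The stretches around the active site are shown because CTSL has a close relative, CTSV, that is not among the 10, and reads of such a pair could be counted on the wrong gene. Each is 30 bases of coding sequence from the Sscrofa11.1 RefSeq annotation, 5′ to 3′ on the strand of the gene, with the codon of the catalytic residue in capitals. That residue is the cysteine at position 138 of the precursor in CTSL and CTSV, 140 in CTSK and 139 in CTSS.
CTSL, chr10:27672856-27672885, minus strand: cactgtggttctTGTtgggcttttagtgcc
CTSV, chr10:25204524-25204553, plus strand: cagtgtggttctTGTtgggcttttagtgcc
CTSK, chr4:98395795-98395824, plus strand: cagtgtggttccTGTtgggcttttagctct
CTSS, chr4:98425602-98425631, plus strand: tcttgtggttctTGTtgggctttcagcgct

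Counted from 1 at the 5′ end, CTSL and CTSV differed in this stretch by 1 of 30 bases, C3G, while CTSK differed from CTSL by 5 and CTSS by 6. Over the whole precursor, 261 of 332 aligned residues of CTSL and CTSV were identical (78.6%), against 51.2% for CTSL with CTSS, 50.8% with CTSK and 30.6% with CTSB. Of the 25-base windows of the 1418-base CTSL transcript, 6.46% also occurred in CTSV, and of the 50-base windows 0 of 1369 did. The annotation lists CTSL among the older names of CTSV, so that the same name can stand for either gene in other pig sources.

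Among the libraries, the LLS ovary ZD8 stood apart from the other 5. Its 7 luteal marker genes summed to 124 FPKM, against 9167 to 12190.7 FPKM in the other ovaries, where STAR and HSD3B1 led them. It was also the shallowest library, at 32272803 reads against 51703531 or more, and had the most genes at 1 FPKM or above, 13908 against 11832 to 12531. ZD8 was the lowest of the 6 ovaries for 26.3% of the tested genes and the highest for 44.6%. The group differences of the cathepsins followed here are therefore given with and without ZD8. So are the median differences of the lists of cathepsin partners and of the luteal, endothelial, smooth muscle, stroma and T and NK cell markers. For the other marker lists these medians are not given. In whole ovary, fewer cells of a type and less RNA per cell cannot be told apart.

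Ranked by mean FPKM over the 6 ovaries, the cathepsins ran from CTSC (412 ± 261 FPKM, SD, n = 6 ovaries), CTSB (338 ± 68.1) and CTSD (312 ± 111), through CTSH (138 ± 54.9) and CTSA (94.9 ± 33.4), to CTSF (45.9 ± 25.2), CTSK (41.3 ± 11.6), CTSZ (30.5 ± 6.12), CTSL (19.5 ± 14.4) and CTSS (8.29 ± 1.07). Neighbours in this order were clearly separated at CTSD over CTSH and at CTSH over CTSA, where the first was higher in 6 of 6 ovaries. CTSB was above CTSD in only 3 of 6 ovaries and CTSF above CTSK in 3 of 6, so that these pairs did not differ beyond their spread. CTSC was above CTSB, CTSZ above CTSL and CTSL above CTSS in 4 of 6 each. CTSL thus held no fixed place: it was above CTSS in each SLS ovary and in ZD5, and below it in ZD7 and ZD8. The FPKM values use the longest annotated transcript, which for CTSK (3669 bases) and CTSS (4054 bases) is far longer than their coding parts of 993 and 996 bases.

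**Figure D1:**
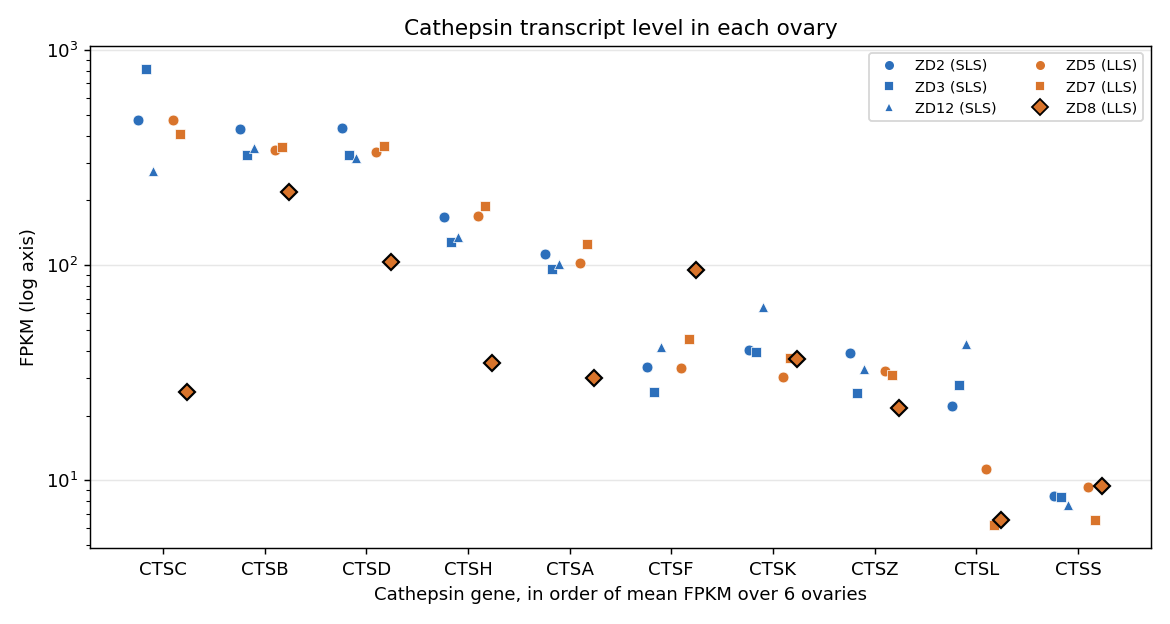
Level of each cathepsin (FPKM, log axis) in each ovary, with SLS ovaries in blue, LLS ovaries in orange and the LLS ovary ZD8 outlined in black. The 3 LLS points of CTSL lie below its 3 SLS points, and ZD8 lies far below the other ovaries for CTSC, CTSH, CTSA and CTSD.

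CTSL is an endopeptidase that degrades proteins in the lysosome and, when secreted, the extracellular matrix. Its SLS values were 22.3 FPKM in ZD2, 27.7 FPKM in ZD3 and 42.8 FPKM in ZD12, from 1922, 2032 and 3214 reads. Its LLS values were 11.3 FPKM in ZD5, 6.17 FPKM in ZD7 and 6.56 FPKM in ZD8, from 924, 533 and 300 reads. The groups did not overlap, with 1.97 times between the lowest SLS ovary and the highest LLS ovary, and ZD12 was the highest of all. The means were 30.9 ± 10.7 FPKM in SLS and 8.02 ± 2.87 FPKM in LLS (SD, n = 3 ovaries each), a ratio of 3.86. On the log2(FPKM + 1) scale the difference was -1.82 (standard error 0.34), and -1.71 (standard error 0.34) without ZD8. It is given as a description without a test, because these values chose the gene. Groups without overlap and lower in LLS were seen for 389 of 12260 tested genes (3.17%), and higher in LLS for 239 (1.95%). By the size of the log2 difference, CTSL was number 14 among those 389.

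The values of its relative CTSV did not separate the groups. CTSV was at 67.5, 77.5 and 64.7 FPKM in ZD2, ZD3 and ZD12, and at 89.3, 81.3 and 55.4 FPKM in ZD5, ZD7 and ZD8. The groups overlapped, with the highest values in ZD5 and ZD7 and the lowest in ZD8. LLS minus SLS came to 0.08 on the log2 scale, with a standard error of 0.30 and an adjusted p of 0.999 by limma, and to 0.29 (standard error 0.24) without ZD8. CTSL made up 24.8%, 26.3% and 39.8% of the sum of both genes in SLS and 11.3% (ZD5), 7.06% (ZD7) and 10.6% (ZD8) in LLS. These shares rest on the values that chose CTSL and are no separate result. The sum of both was 101 ± 9.63 FPKM in SLS and 83.4 ± 19.6 FPKM in LLS (SD, n = 3 each), with overlapping groups.

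**Figure D2:**
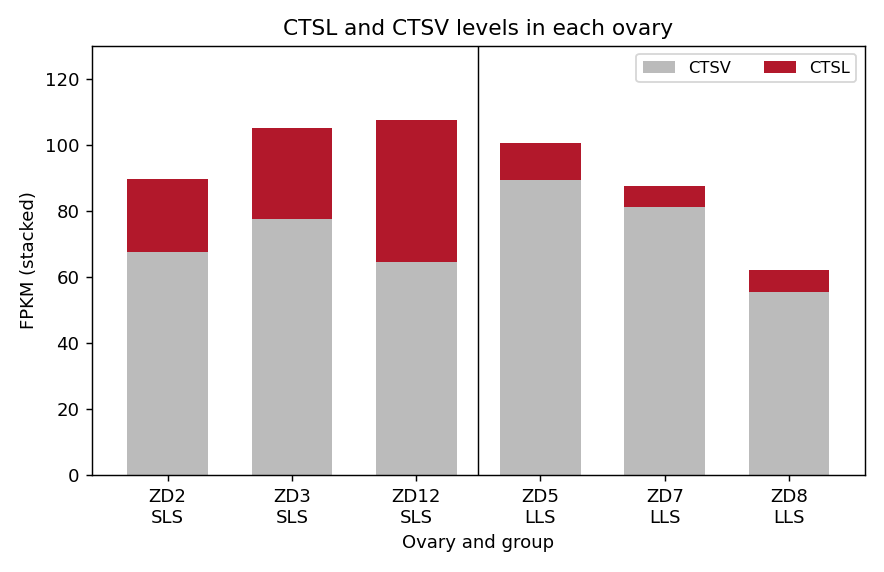
FPKM of CTSV (grey) and CTSL (red) stacked for each ovary, SLS on the left of the line and LLS on the right. CTSL is the smaller part in each of the 6 ovaries, between 7.06% and 39.8% of the sum, and its part is smaller in the 3 LLS ovaries. Its lower part in LLS rests on the values that chose CTSL.

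Of the other 9 cathepsins, 0 were called between LLS and SLS by limma, as were 0 of all 12260 tested genes (0%), where a gene was called if it differed by more than 1 on the log2 scale and had a p under 0.05 after Benjamini-Hochberg adjustment. At an unadjusted p under 0.05 there were 0 of the 9 and 216 of all genes. Without ZD8, limma called 20 of 11985 genes (0.167%) and again 0 of the 9. DESeq2 and edgeR on the reads recovered from the FPKM values also called 0 of the 9. Over all genes, DESeq2 called 13 of 23477 and edgeR 0 of 12245. The lowest adjusted p of any of the 9 over all 15 alternatives was 0.423, for CTSK by limma with array weights. Each of the 9 had an adjusted p of 0.999 by limma with all 6 ovaries.

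CTSK was the only cathepsin beside CTSL whose groups did not overlap, 1 of 9 where 3.17% of all genes were lower in LLS in this way. It is the collagen-cleaving protease best known from osteoclasts. Its values were 40.4, 39.4 and 63.8 FPKM in ZD2, ZD3 and ZD12, and 30.2, 37.1 and 36.8 FPKM in ZD5, ZD7 and ZD8. The gap was small, with the lowest SLS ovary only 1.06 times the highest LLS ovary, and ZD12 stood out as it did for CTSL. The log2 difference was -0.42 (standard error 0.29) and -0.47 without ZD8 (standard error 0.28), but -0.20 without ZD12.

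CTSC, CTSH, CTSA and CTSD were each far lower in ZD8 than in any of the other 5 ovaries. CTSC, the dipeptidyl peptidase that activates the granule proteases of immune cells, was at 475, 819 and 274 FPKM in ZD2, ZD3 and ZD12 and at 471, 407 and 25.8 FPKM in ZD5, ZD7 and ZD8. The median of the other 5 ovaries was 18.2 times the value of ZD8. The log2 difference of -1.46 (standard error 1.05) became -0.11 (standard error 0.43) without ZD8.

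CTSH, an aminopeptidase, was at 168, 129 and 136 FPKM in SLS and at 169, 188 and 35.3 FPKM in LLS, the last of these in ZD8. Its median in the other 5 ovaries was 4.76 times ZD8. The direction turned from -0.45 (standard error 0.61) to 0.32 (standard error 0.26) without ZD8. The 2 LLS ovaries left were then both above the 3 SLS ovaries, by little.

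CTSA, which removes single C-terminal residues and shields the lysosomal enzymes NEU1 and GLB1, was at 113, 96.3 and 102 FPKM in SLS and at 103, 125 and 30.1 FPKM in LLS. Its difference turned from -0.49 (standard error 0.52) to 0.13 (standard error 0.25) without ZD8. CTSD, the main aspartic protease of lysosomes, was at 435, 326 and 314 FPKM in SLS and at 338, 358 and 104 FPKM in LLS, with ZD8 again the lowest. Its difference was -0.60 (standard error 0.55), and -0.03 (standard error 0.29) without ZD8.

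CTSB and CTSZ were lowest in ZD8 too, but by less. CTSB, an endopeptidase that also trims dipeptides from C-termini, was at 429, 326 and 352 FPKM in SLS and at 345, 355 and 219 FPKM in LLS. CTSZ, a carboxypeptidase, was at 39.2, 25.6 and 33.1 FPKM in SLS and at 32.3, 31.0 and 21.7 FPKM in LLS. The median of the other ovaries was 1.61 times ZD8 for CTSB and 1.48 times for CTSZ. Their log2 differences of -0.29 (standard error 0.41) and -0.20 (standard error 0.29) were -0.07 and -0.02 without ZD8.

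CTSF and CTSS went the other way in ZD8. CTSF, a cysteine protease of lysosomes with a long propeptide, was at 33.8, 25.7 and 41.8 FPKM in SLS and at 33.3, 45.3 and 95.4 FPKM in LLS, so that ZD8 held 2.82 times the median of the other ovaries. Its log2 difference of 0.65 (standard error 0.41) was 0.22 (standard error 0.28) without ZD8. CTSS, the protease of antigen-presenting cells that stays active at neutral pH, had the smallest range on the log2 scale of the 10 genes. It was at 8.49, 8.34 and 7.68 FPKM in SLS and at 9.28, 6.53 and 9.42 FPKM in LLS, with a log2 difference of 0.02 (standard error 0.26), and -0.06 without ZD8.

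**Figure D3:**
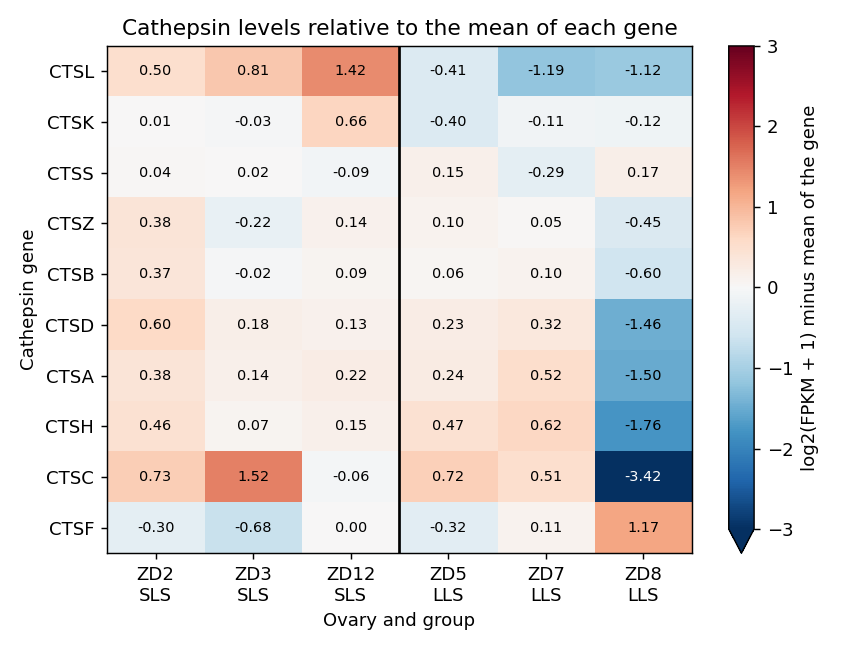
Each cathepsin in each ovary as log2(FPKM + 1) minus the mean of the gene over the 6 ovaries, red above and blue below the mean, with the line between SLS and LLS. CTSL is positive in the 3 SLS ovaries (0.50 to 1.42) and negative in the 3 LLS ovaries (-1.19 to -0.41), while CTSC, CTSH, CTSA and CTSD lie at -1.46 or lower in ZD8.

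In all, ZD8 was the lowest of the 6 ovaries for 6 of the 10 cathepsins and the highest for 2, beside 26.3% and 44.6% of all tested genes. The summed level of the 10 genes was 1764, 1822 and 1367 FPKM in ZD2, ZD3 and ZD12, 1543 and 1560 FPKM in ZD5 and ZD7, and 584 FPKM in ZD8. The makeup of this sum also shifted in ZD8, where CTSC took 4.42% of it (20.1% to 45.0% in the other ovaries) and CTSF 16.3% (1.41% to 3.06%). CTSL took 1.97 ± 1.01% in SLS and 0.751 ± 0.364% in LLS (SD, n = 3 each), from 1.26% upward in SLS and up to 1.12%, in ZD8, in LLS. As shares of reads, with no scaling to transcript length, the means were 1.14% and 0.442%. Both rest on the values that chose CTSL.

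**Figure D4:**
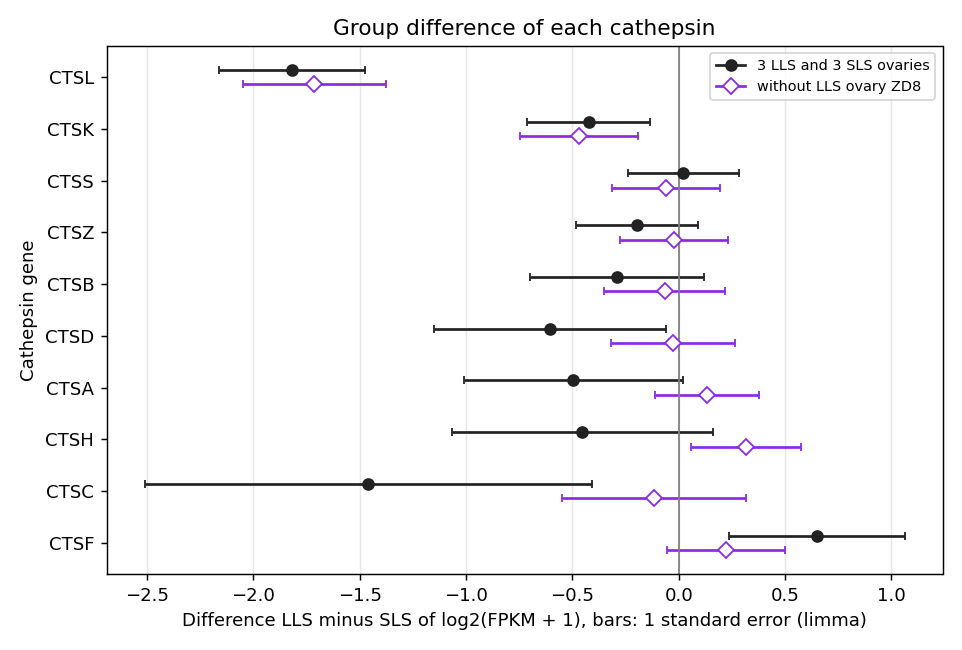
Difference of LLS minus SLS for each cathepsin on the log2(FPKM + 1) scale with its standard error by limma, from all 6 ovaries (black circles) and without the LLS ovary ZD8 (open diamonds). CTSL is at -1.82 and -1.71, whereas CTSC moves from -1.46 to -0.11 and CTSH and CTSA change sign.

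The partners of the cathepsins were read from 5 lists with 66 genes, of which 61 were in the table and 58 passed the filter. By limma 0 of the 58 were called, and 1 had an unadjusted p under 0.05. Over all 12260 tested genes these counts were 0 and 216. The groups did not overlap for 2 of them, GNPTAB higher and BECN1 lower in LLS, beside 1.95% and 3.17% of all genes. GNPTAB, the catalytic part of the enzyme that begins the mannose 6-phosphate tag, was at 13.6, 16.4 and 13.4 FPKM in SLS and at 30.8, 22.4 and 19.3 FPKM in LLS (log2 difference 0.68, standard error 0.27, adjusted p = 0.999 by limma). BECN1, a starter of autophagy, was at 25 to 29.5 FPKM in SLS and at 21.2, 22.9 and 18.3 FPKM in LLS (log2 difference -0.39, standard error 0.24, adjusted p = 0.999 by limma). Both were named because their groups did not overlap, so no further test is given.

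Among the inhibitors, 6 of 12 listed genes were tested, and their median log2 difference was -0.09 beside 0.02 over all tested genes, and -0.19 beside -0.10 without ZD8. CST3, the secreted cystatin C, was at 741, 487 and 827 FPKM in SLS and at 484, 624 and 955 FPKM in LLS, far above CTSL in every ovary. A2M, which traps proteases of all classes, was between 114 and 294 FPKM in SLS and between 161 and 182 FPKM in LLS. Neither separated the groups.

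Of the 12 genes for processing and trafficking, 8 were lowest in ZD8, beside 26.3% of all tested genes. Their median log2 difference was -0.07 with 9 of 12 negative, and turned to 0.11 with 5 of 12 negative without ZD8. PSAP, the precursor of the saposins, was between 369 and 496 FPKM in SLS and at 509, 425 and 257 FPKM in ZD5, ZD7 and ZD8. SCARB2, the lysosomal receptor for glucocerebrosidase, was between 150 and 170 FPKM in SLS and between 147 and 205 FPKM in LLS. The receptor gene M6PR was at 88.5 and 74.8 FPKM in ZD5 and ZD7, above the 36.4 to 40.4 FPKM of the SLS ovaries, but at 21.0 FPKM in ZD8. M6PR was picked out after its values were seen.

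Most of the listed hydrolase and membrane genes of the lysosome were lowest in ZD8, as CTSA, CTSC, CTSD and CTSH were. Of 15 hydrolases, 12 were lowest in ZD8, with a median log2 difference between groups of -0.41, and -0.04 without ZD8. LIPA, the acid lipase that frees cholesterol from its esters, was between 159 and 210 FPKM in SLS and at 206, 187 and 27.5 FPKM in LLS. Of 15 genes for the lysosomal membrane and its proton pump, 12 were lowest in ZD8, and the median difference turned from -0.15 to 0.26 without it. CD63 was at 198 FPKM there against 415 to 583 FPKM elsewhere, and the pump subunit ATP6V0D1 at 32.8 FPKM against 125 to 268 FPKM. Of the 10 tested genes for transcription factors and autophagy, 5 were highest in ZD8 and 2 lowest, near the 44.6% and 26.3% of all tested genes. Their median difference turned from 0.16 to -0.13 without ZD8. GABARAP was between 240 and 360 FPKM and SQSTM1 between 107 and 162 FPKM over the 6 ovaries, both without separation of the groups. TFEB, named here after its values were seen, was between 4.35 and 10.1 FPKM in the other 5 ovaries and at 16.3 FPKM in ZD8.

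**Figure D5:**
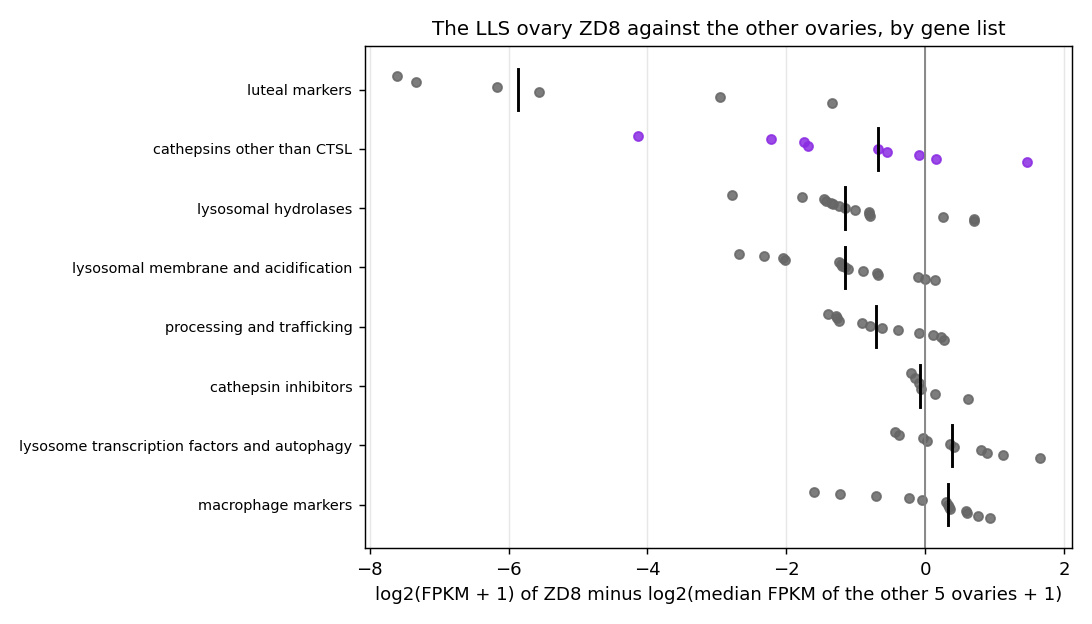
Each point is a tested gene of a list, placed at its log2(FPKM + 1) in ZD8 minus that of the median of the other 5 ovaries, with a bar at the median of the list. The medians were -5.86 for luteal markers, -0.68 for the 9 cathepsins other than CTSL, -1.15 for hydrolases, -1.15 for membrane and acidification genes, -0.08 for inhibitors and 0.34 for macrophage markers, beside 0.23 over all tested genes.

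Macrophages are rich in cathepsins, so their markers are given beside CTSL. The 14 macrophage markers, of which 13 were tested and 0 were at 0 in all ovaries, summed to between 95.9 and 184 FPKM in SLS and between 126 and 165 FPKM in LLS. C1QC and C1QB led the list, and CD68, CSF1R, CD163 and AIF1 overlapped between the groups. LYZ, the gene of lysozyme, was the only marker of the list whose groups did not overlap, 1 of 13 tested beside 3.17% of all genes, at 4.25, 4.48 and 2.66 FPKM in SLS and 1.62, 0.741 and 0.564 FPKM in LLS (log2 difference -1.29, standard error 0.32, adjusted p = 0.999 by limma). In the small RNA libraries of the same groups, miR-223, a microRNA of myeloid cells, was at 47.8, 156 and 30.3 RPM (reads scaled to the depth of the library) in SLS and at 43.3, 33.8 and 12.9 RPM in LLS. The blood cell microRNA miR-142-5p was at 1434, 632 and 164 RPM in SLS and at 430, 498 and 309 RPM in LLS. Neither microRNA separated the groups. In the same list, miR-150 was at 41.6, 95.5 and 70.5 RPM in SLS and at 97.15, 64.2 and 94.1 RPM in LLS. The values of miR-155-5p were 438, 829 and 577 RPM in SLS and 754, 623 and 544 RPM in LLS. The groups also overlapped for both of these and for miR-142-3p, miR-146b and miR-21-5p.

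Other cell types were read the same way. The 7 granulosa markers summed to 749, 601 and 892 FPKM in SLS and to 540, 426 and 162 FPKM in LLS without overlap, a separation that came from INHA. Without INHA, a comparison chosen after seeing the data, the sums were 196, 225 and 166 FPKM in SLS and 254.5, 263 and 95.5 FPKM in LLS and overlapped. CYP19A1 was at or near 0 throughout. Single markers also did not overlap between the groups in the luteal (LHCGR, lower in LLS), endothelial (PECAM1, lower) and epithelial (EPCAM, higher, and KRT18, lower) lists and, among T cell markers, for CD4 (higher), beside 3.17% of all tested genes lower and 1.95% higher in this way. Of the 6 tested luteal markers, LHCGR among them, 6 were negative, with a median log2 difference of -1.66. Without ZD8, 3 of the 6 were negative and the median was 0.18. PECAM1 had a log2 difference of -0.96, and -0.52 without ZD8. Of the 6 endothelial markers 4 were negative, with a median of -0.24, and -0.02 without ZD8. KRT18 and CD4 did not pass the filter on low values. EPCAM, an adhesion protein of epithelia, was at 0.312, 0.339 and 1.28 FPKM in SLS and at 27.8, 9.73 and 2.31 FPKM in LLS, lowest of the 3 in ZD8. Its log2 difference was 2.66 (standard error 0.70, adjusted p = 0.999 by limma). It was called without ZD8 (3.47, standard error 0.42, adjusted p = 0.0221 by limma), with array weights (3.27, adjusted p = 0.025 by limma) and by DESeq2 (4.55, adjusted p = 0.000852), but not by edgeR (4.52, adjusted p = 1.0). The other 3 tested epithelial markers had negative differences, -1.16 for KRT8, -1.47 for KRT19 and -0.10 for CDH1. The part of these cell types in the level of CTSL was not tested. Sums for stroma (3425 to 9601 FPKM), smooth muscle (314 to 1796 FPKM) and T and NK cells (5.04 to 20.4 FPKM) overlapped between the groups. The median log2 difference of smooth muscle markers was -0.85 (4 of 5 negative), and -1.21 (5 of 5) without ZD8. It was -0.09 (4 of 7) and -0.48 (5 of 7) for stroma, and 0.34 (1 of 4) and -0.18 (3 of 4) for T and NK cells. Over all tested genes the medians were 0.02 and -0.10. Theca markers, led by INSL3, summed to 415 FPKM in ZD8 and to at most 74.4 FPKM elsewhere, and oocyte markers to 104 FPKM in ZD8 and to at most 20.2 FPKM elsewhere.

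The 5 genes whose profile over the 6 ovaries was most like that of CTSL were LCN2, LOC110258133, CHAC1, TRAP1 and HSPE1. Likeness was the root mean square difference between log2(FPKM + 1) values centred on the mean of each gene, which was 0.32, 0.37, 0.40, 0.40 and 0.43 for them. LCN2, the gene of a secreted carrier of iron-binding siderophores, was at 46.1, 34.3 and 86.1 FPKM in SLS and at 19.2, 15.6 and 16.3 FPKM in LLS, highest in ZD12 like CTSL. TRAP1 and HSPE1 encode chaperones of the mitochondria and CHAC1 an enzyme that degrades glutathione. All 5 were lower in each LLS ovary than in each SLS ovary, which their likeness to CTSL largely fixes. Without ZD8 their ranks by likeness were 6, 17, 4, 27 and 30. LOC110258133 was listed at 0 in the 3 LLS ovaries and passed the filter on low values through the 3 SLS ovaries alone. Its likeness to CTSL is thus partly fixed by the filter. Within the family, the nearest to CTSL was CTSK (0.78, rank 388 of 12259 genes) and the farthest CTSC (1.43, rank 11749). Without ZD8 the nearest was again CTSK (0.71), and the farthest was CTSH (1.11), ahead of CTSC (1.08).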

How the data were processed

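Gene values were deposited as FPKM by the authors, after trimming with NGSQCToolkit and mapping to Sscrofa11.1 with HISAT2, and the tool that counted reads is not given in the sources used here. The deposited miRNA table, called TPM, holds RPM, reads scaled to library depth, and 100% of values above 0 gave whole reads within 0.01. Its columns match the titles of both library kinds, so its values are used by group, with no link to a gene library. BWA is named in the submitters' processing notes for these libraries, which held 3537619 to 9854086 reads. Gene reads were recovered from FPKM with the longest transcript of the RefSeq annotation of Sscrofa11.1, within 0.001 of a whole read for 23477 of 23564 genes above 0 (99.6%).

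LLS was compared with SLS by limma 3.58.1 with a variance trend on log2(FPKM + 1) in R 4.3.3, a scale that understates the change of low genes, with p-values adjusted over all 12260 genes. DESeq2 1.42.0, the study's tool for mRNA, and edgeR 4.0.16 on recovered reads were alternatives, since FPKM are not counts. The limma and DESeq2 steps were run on simulated data with the same spread setting for all genes. No simulated library stood apart as ZD8 does, so that run does not cover its effect. Sequences and windows were read with Biopython 1.88, and proteins were aligned with BLOSUM62.

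The members and lists were chosen with earlier results of these data known. Genes were named by rule: all members, list genes whose groups did not overlap, the 2 genes with the highest mean of each list (for several marker lists only the sum and those without overlap are given) and the 5 most like CTSL. Outside this rule, M6PR, TFEB, KRT19, CDH1, CD68, CSF1R, CD163, AIF1 and CYP19A1 were named after their values were seen. CTSW and the microRNAs were also named outside this rule. A gene and a sequence under these rules are not reported here. All 12 value columns were used.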

Additional observations from a re-analysis of the deposited data

How the results depend on the processing

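Limma called 0 genes between LLS and SLS (216 before adjustment, at p under 0.05). Array weights gave 13 calls (6 higher and 7 lower in LLS) and DESeq2 gave 13 (9 lower and 4 higher). Leaving out single ovaries gave between 0 and 20 calls, and only the fit without ZD8 made any (14 higher and 6 lower). The other 7 alternatives, edgeR included (220 genes with an unadjusted p under 0.05), made 0. The 9 cathepsins other than CTSL and the lysosome and inhibitor lists had 0 calls under all 15 alternatives.

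The log2 difference of CTSL ran from -2.07 to -1.56 over the 15 alternatives. Its sign could not turn when an ovary was left out, since it was chosen for groups that do not overlap, and this range is no support for it. Signs turned for 12 other genes. With array weights CTSA came to 0.0621, CTSC to 0.0439, CTSH to 0.2338, CTSS to -0.031, PSAP to 0.0321 and ATP6V0D1 to 0.5861. Quantile normalization gave -0.0003 for CTSS, 0.0538 for CST3 and 0.0817 for PSAP, and median centring -0.0005 for CTSS. DESeq2 gave -0.0414 for CTSS and 0.2939 for ATP6V0D1, and edgeR 0.3021 for ATP6V0D1. Over single ovaries left out, the ranges were -0.8781 to 0.1327 for CTSA, -0.8757 to 0.3161 for CTSH, -0.0589 to 0.1751 for CTSS, -0.0526 to 0.2861 for CTSV, -0.0557 to 0.5078 for CTSW, -0.2815 to 0.2086 for CST3, -0.5442 to 0.135 for A2M, -0.39 to 0.1026 for PSAP, -1.3576 to 0.0748 for LIPA, -0.6861 to 0.045 for CD63 and -0.8037 to 0.6921 for ATP6V0D1. Array weights gave ZD8 the lowest weight (0.135, against 0.597 to 2.27), and the cause of the other changes was not tested. Depth limits CTSW most (44 to 136 reads), while CTSL had at least 300 reads in each library.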

Other observations

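CTSK and CTSS are neighbours on the plus strand of chromosome 4 in Sscrofa11.1, with CTSK ending at 98404969 and CTSS starting at 98415273. Their transcripts shared 0 of the 25-base windows. CTSK differed between ovaries by more than CTSS, with 30.2 to 63.8 FPKM against 6.53 to 9.42 FPKM. CTSL and CTSV also share a chromosome, with CTSV at 25202360 to 25208058 on the plus strand and CTSL at 27668523 to 27674705 on the minus strand of chromosome 10.

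Further cathepsins of the table had low levels. CTSO was at 3.48, 6.14 and 5.21 FPKM in SLS and at 3.35, 3.09 and 4.32 FPKM in LLS (log2 difference -0.36, standard error 0.29, adjusted p = 0.999 by limma). CTSW, a gene of cytotoxic lymphocytes, was at 1.67, 1.26 and 0.647 FPKM in SLS and at 0.960, 1.19 and 3.28 FPKM in LLS, with the highest value in ZD8, where the T and NK cell markers also had their highest sum (20.4 FPKM, against 5.04 to 9.32 FPKM). ZD8 was the highest ovary for 44.6% of all tested genes, and a link between CTSW and these markers was not tested.

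The letters CACGTG, the core of the sites that TFEB and its relatives bind, were searched in 300 bases around each gene start, 250 before and 50 after it. These letters read the same on both strands. They were found in 2 of the 10 cathepsin windows, CTSA and CTSF, and in 1869 of 27761 windows of all genes (6.73%). The stretches are shown because ZD8 was the lowest ovary for CTSA and the highest for CTSF, with the match in capitals.
CTSA, chr17:48082452-48082481, plus strand: gatgccagagcaCACGTGactcgagataca
CTSF, chr2:5855016-5855045, plus strand: gccggcgcgcccCACGTGcctcacgtaaac
A match describes the letters of the reference and not a bound site.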
